A study of Mus musculus with 6 samples.

Results

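Translation initiation factor genes were followed through the Eomes peaks that 3 chromatin immunoprecipitation experiments assigned to them in mouse natural killer (NK) cells. Members were the gene symbols in the peak lists that start with Eif and a digit from 1 to 6, leaving out the kinase genes that start with Eif2ak and pseudogenes. The rule took 47 of the 23251 symbols in the lists. RefSeq (GRCm38.p6, the assembly behind mm10) holds 52 protein-coding genes of that pattern, and no peak was assigned to the other 5, which are Eif2b1, Eif2s3y, Eif4a3l1, Eif4e1b and Eif4ebp3.

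Initiation is the step at which a ribosome is placed on the start codon of an mRNA. The factor eIF2 carries the initiator tRNA to the small subunit with GTP, and eIF2B recharges it. The cap-binding protein eIF4E, the scaffold eIF4G and the helicase eIF4A bring in the mRNA, eIF3 joins both sides, eIF1 and eIF1A guard the choice of start codon, and eIF5 and eIF5B complete the joining of subunits. Demand for these factors rises when lymphocytes grow, and signalling through mTOR controls eIF4E by way of its binding proteins. Eomes is a T-box transcription factor needed for NK cell maturation.

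The series asked where Eomes sits in the genome of mouse NK cells. Per the labels, each of the 3 experiments used NK cells from the spleens of wild-type C57BL/6 animals of 8 to 12 weeks. The splenocytes were pooled before NK cells were purified, and the cells then grew for 4 days with IL-15 at 100 ng/mL. Each experiment gave 1 library precipitated with an anti-Eomes antibody and 1 input library of DNA left without precipitation, 3 of each in all, and no library differs in genotype or treatment. Animals were pooled, the cells were expanded in culture and 1 antibody was used. Libraries from cells without Eomes were not analysed here. The lists hold no expression values, so the identity of the cells was not checked against marker genes, and no level of a factor is known from them.

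The 3 lists held 37456, 33841 and 46329 peaks. The sources used here do not give the read depth, and the smallest number of fragments at a listed summit was 8, 7 and 9, so weaker binding was not detectable. Peaks sharing at least 1 bp were joined into regions, and a region with peaks from at least 2 experiments is called reproducible. The leading region of a gene is its reproducible region found in the most experiments and, among those, with the highest mean rank of the −log10 q-value within the lists. A fold is the ratio of precipitated to background signal given by the authors' peak caller, and a pileup is read as the number of precipitated fragments at the summit. Both are the authors' own values for a peak. The distance of a region is that of its highest-ranked peak to whichever annotated transcript start was nearest, which at some genes is an internal start. Folds are means ± SD over the experiments that hold the region.

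Most initiation factor genes had a reproducible Eomes region, and it usually lay at an annotated start. Of the 47 members, 36 had such a region, which is 69.2% of the 52 family genes, against 43.6% of all 21896 protein-coding genes. A member needed a peak to be in the lists. Over the 47 members the share was 76.6%, against 61.8% of all genes with an assigned region. A region in the promoter class (up to 3000 bp from a start) was reproducible at 34 members, or 65.4% of the 52, against 37.1% of all genes. Over the 47 members this was 72.3%, against 52.7% of genes with an assigned region. A region in all 3 experiments was found at 29 members (background 28.8%), and at 26 members it was a promoter region (background 24.2%). Outside promoters the count was 8 members, or 15.4% of the 52, which is near the background of 15.1%. With 1 experiment left out and a region needed in both others, 36 members were covered without experiment 1, 29 without experiment 2 and 29 without experiment 3, against 36.6%, 35.3% and 30.4% of all genes. Where overlapping peaks had to share at least 50% of each, members with a region in all 3 experiments numbered 19, against 20.6%.

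Each of the 47 members has a peak by rule, so shares here are over the 52 family genes. A region from at least 1 experiment was assigned to 46 members, or 88.5% (background 70.5%). A promoter region was assigned to 41, or 78.8% (background 57.7%). Experiment 1 had a peak at 35 members, experiment 2 at 42 and experiment 3 at 43. These are 67.3%, 80.8% and 82.7%, against 54.1%, 54.0% and 60.1% of all genes. A promoter peak was present at 32, 36 and 38 members (61.5%, 69.2% and 73.1%), against 39.9%, 41.7% and 48.4%. In all, 33 members had peaks in 3 experiments, 7 in 2 and 7 in 1. Among the 36 members with a reproducible region, 55.6% had only 1, against 63.7% of the 9543 covered genes. The number of reproducible regions was 1 at 20 members, 2 at 13, 3 at Eif3j2 and Eif4g2, and 4 at Eif4g3, and 11 members had none.

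**Figure D1:**
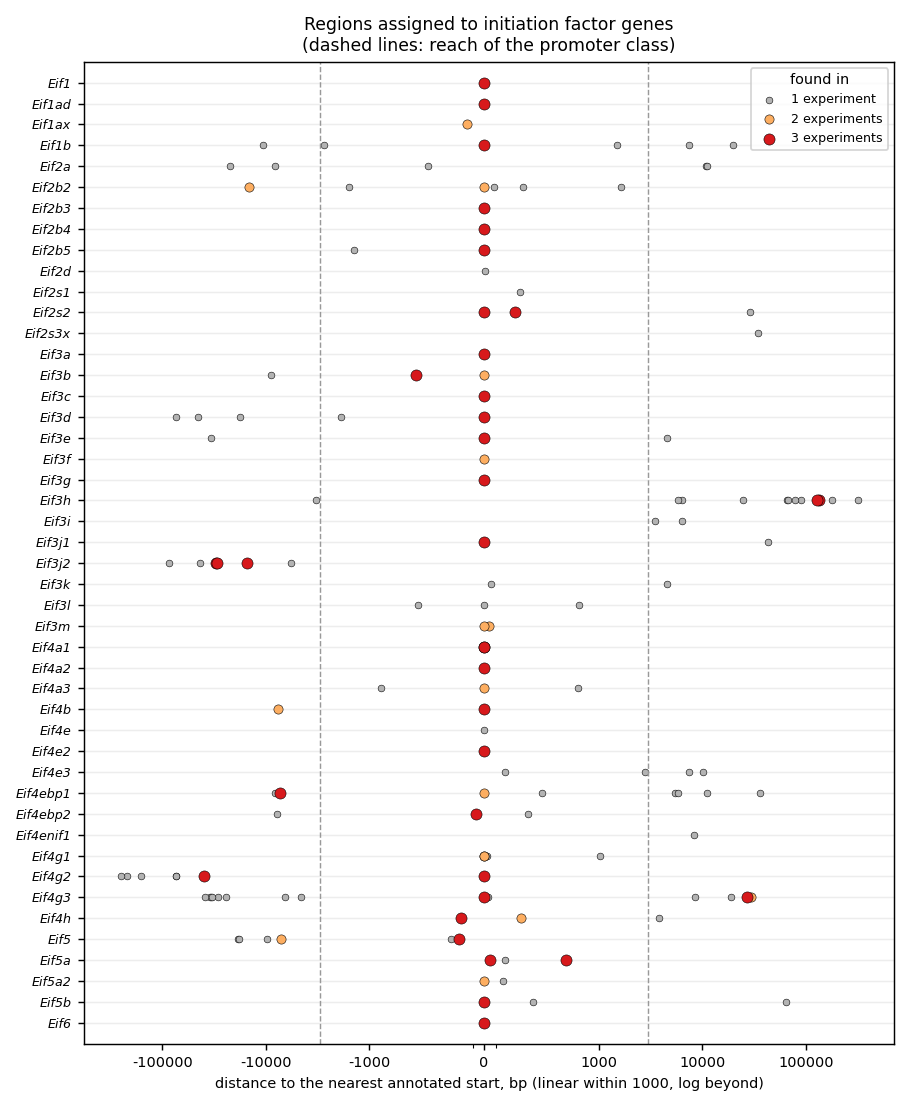
Regions assigned to each initiation factor gene (rows) by distance in bp from the nearest annotated transcript start, on an axis that is linear within 1000 bp and logarithmic beyond. Point size and colour give the number of experiments, dashed lines mark the reach of the promoter class, and points can overlie each other. Regions of 2 or 3 experiments gather at the start, whereas regions of 1 experiment spread to both sides.

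The plot of regions by distance shows 149 regions assigned to members. Of these, 93 were found in 1 experiment, 19 in 2 and 37 in 3, so that 37.6% were reproducible, against 23.8% of all regions. The 56 reproducible regions comprised 44 in promoters, 10 in distal intergenic sequence and 2 in introns, and the promoter share of 78.6% compares with 59.1% over all reproducible regions. At 34 of the 44 promoter regions the highest-ranked peak overlapped an annotated start (77.3%, against 55.3%). None of the 44 lay beyond 1000 bp, against 1641 of the 11892 reproducible promoter regions of all genes. Among the regions of 1 experiment the promoter share was 33.3%, close to the 30.0% of all such regions.

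The promoter share was also counted per list, where the experiment is the replicate. Promoter peaks made up 60.0%, 64.8% and 62.0% of member peaks in experiments 1, 2 and 3, a mean of 62.3 ± 2.40% (SD, n = 3). Over all peaks the shares were 41.2%, 47.0% and 44.6%, so each experiment had a higher share at the members. No p was computed, since members were chosen with results of these data known.

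Within promoters, member peaks sat closer to the start than promoter peaks in general. The summit lay within 300 bp of the annotated start named in the list for 78.6%, 68.4% and 71.0% of member promoter peaks, against 50.5%, 53.8% and 49.9% of all promoter peaks. Their height differed little from that of other promoter peaks. The median pileup was 15, 11 and 18 fragments at members and 13, 11 and 15 at all promoter peaks. The difference of 2, 0 and 3 fragments had a mean of 1.67 ± 1.53 (SD, n = 3), about the size of its spread, and it was 0 in experiment 2. Median folds were 4.30, 5.0 and 4.60, beside 4.23, 4.74 and 4.20 for all promoter peaks. Among the top 10% of each list by −log10 q-value were 9, 9 and 11 of the member promoter peaks (21.4%, 15.8% and 17.7%), against 11.9%, 11.3% and 12.0% of all promoter peaks.

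**Figure D2:**
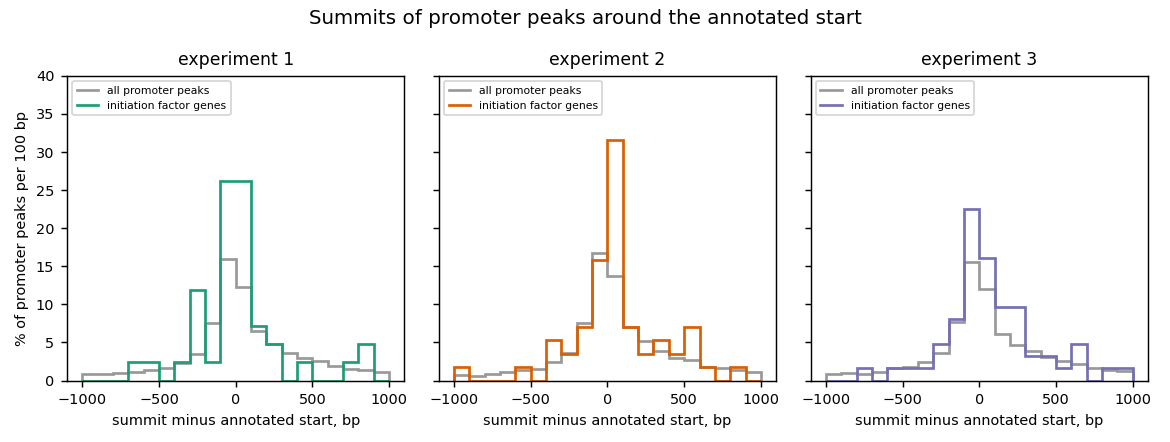
Share of promoter peaks (%, per 100 bp) by the distance in bp of the summit from the annotated start, in experiments 1, 2 and 3. Coloured lines are peaks of initiation factor genes, 42, 57 and 62 in number, and grey lines are all promoter peaks of the same list. In experiments 1 and 3 the member line is above the grey line in both bins next to the start, and in experiment 2 in the bin from 0 to 100 bp.

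Promoter sequence was available for 37 of the 47 members, as RefSeq windows on GRCm38.p6 from 250 bases before to 50 after the start. The 5 highest-ranked members whose leading region was a promoter region and that had a window were Eif5b, Eif1ad, Eif4a2, Eif4a1 and Eif2b5. The 250 bases before their starts are shown here to let the letters at these promoters be read. At Eif4a1 the window lies outside the leading region and under its second, weaker region. They are Eif5b (chr1:37997760-37998009, plus strand), Eif1ad (chr19:5366563-5366812, plus strand), Eif4a2 (chr16:23107218-23107467, plus strand), Eif4a1 (chr11:69672424-69672673, minus strand) and Eif2b5 (chr16:20498567-20498816, plus strand), each 5′ to 3′ on the strand of the gene. Capitals mark any match to 1 of the motifs named after the sequences, on either strand.
Eif5b: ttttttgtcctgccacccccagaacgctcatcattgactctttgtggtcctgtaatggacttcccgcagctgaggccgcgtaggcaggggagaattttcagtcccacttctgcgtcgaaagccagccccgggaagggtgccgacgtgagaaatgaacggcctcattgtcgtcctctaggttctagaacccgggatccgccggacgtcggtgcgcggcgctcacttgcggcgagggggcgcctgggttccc
Eif1ad: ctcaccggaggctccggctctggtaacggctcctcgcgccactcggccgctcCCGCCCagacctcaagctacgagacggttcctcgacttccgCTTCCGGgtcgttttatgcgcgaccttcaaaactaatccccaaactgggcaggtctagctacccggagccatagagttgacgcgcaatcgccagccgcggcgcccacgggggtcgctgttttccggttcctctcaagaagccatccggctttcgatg
Eif4a2: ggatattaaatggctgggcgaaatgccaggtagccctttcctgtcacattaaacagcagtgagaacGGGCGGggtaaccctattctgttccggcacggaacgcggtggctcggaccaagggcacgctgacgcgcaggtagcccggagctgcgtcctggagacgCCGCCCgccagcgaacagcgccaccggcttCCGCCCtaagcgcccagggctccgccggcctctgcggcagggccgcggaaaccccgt
Eif4a1: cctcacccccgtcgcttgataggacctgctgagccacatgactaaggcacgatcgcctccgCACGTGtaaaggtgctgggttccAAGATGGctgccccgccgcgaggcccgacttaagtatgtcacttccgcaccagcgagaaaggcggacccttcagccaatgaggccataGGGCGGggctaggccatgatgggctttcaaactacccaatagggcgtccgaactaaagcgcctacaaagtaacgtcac
Eif2b5: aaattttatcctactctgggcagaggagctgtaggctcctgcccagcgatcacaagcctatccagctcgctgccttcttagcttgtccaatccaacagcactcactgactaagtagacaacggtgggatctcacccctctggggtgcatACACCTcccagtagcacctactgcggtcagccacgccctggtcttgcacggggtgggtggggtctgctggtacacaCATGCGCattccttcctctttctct

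The window of Eif5b held none of the motifs searched, although its promoter region was the highest of the family and covered 214 of the 250 bases. In the Eif2b5 window, the T-box letters AGGTGT stood at −101 on the minus strand and the Nrf1 letters GCGCATG at −25. The Eif4a1 window held the E-box letters CACGTG at −189, the YY1 letters AAGATGG at −166 and the Sp letters GGGCGG at −78. In Eif4a2, Sp letters stood at −184, −87 and −57, and in Eif1ad Sp letters stood at −198 and the ETS letters CCGGAAG at −157. Positions count from the first base of a match, as printed, with the base before the start as −1.

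Over all 37 windows, T-box letters were rare. AGGTGT was found at Eif2b5 alone, 1 of 37 (2.70%), against 12.8% of the 17491 promoter windows of protein-coding genes and 10.6% of those whose gene had a reproducible promoter region. The longer form AGGTGTG, which contains the shorter one, was in 0 of 37, against 5.34% of all windows. Other letters were more frequent than in promoters at large. CCGGAAG was in 13 of 37 windows (35.1%, against 11.9%), among them Eif1ad, Eif3d and Eif3g. CACGTG, which reads the same on both strands, was in 8 (21.6%, against 7.90%), including Eif4a1 and Eif4g1. GGGCGG was in 28 (75.7%, against 46.3%), AAGATGG in 4 (10.8%, against 6.37%) and GCGCATG in 5 (13.5%, against 4.88%). In windows of all genes with a reproducible promoter region, GGGCGG was at 68.6%, nearer to the members. CCGGAAG was at 20.3% there, CACGTG at 10.8%, AAGATGG at 7.23% and GCGCATG at 6.94%. All searches covered both strands of the 300 bases. Base composition moved with these shares: member windows had a median GC content of 62.3%, against 56.3%, and a median observed over expected CpG ratio of 0.872, against 0.576. In windows of all genes with a reproducible promoter region these medians were 62.0% and 0.794. The part of composition in the motif shares was not tested. A match to these letters is a description of the window, not a bound site.

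The leading regions of the 36 covered members ranged from a fold of 3.64 to 18.8. Their median fold was 5.69, beside 5.23 for the leading regions of the 9543 covered genes. They were promoter regions at 31 members (86.1%, against 75.3%) and present in all 3 experiments at 29 (80.6%, against 66.0%). Among the 29 in all 3 experiments, experiment 3 alone had the highest pileup in 25. The 7 leading regions found in only 2 experiments were all missing from experiment 1. Of all 19 member regions of 2 experiments, leading or not, 13 lacked experiment 1, 4 lacked experiment 2 and 2 lacked experiment 3. Over the whole genome, 42.8% of the regions of 2 experiments lacked experiment 1, 43.5% lacked experiment 2 and 13.7% lacked experiment 3. Experiment 1 also had the fewest member peaks, 70 against 88 and 100.

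**Figure D3:**
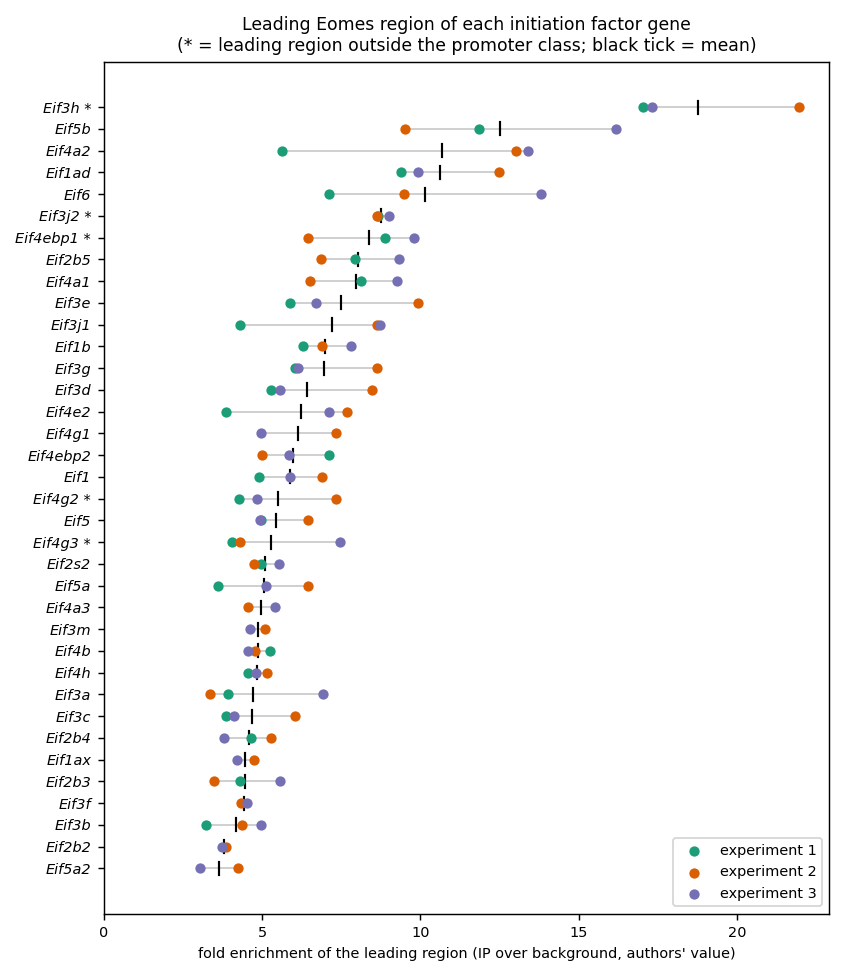
Fold enrichment (linear axis, the authors' ratio of precipitated to background signal) of the leading region of each of 36 initiation factor genes, ordered by mean fold. Coloured points are experiments 1 to 3, black ticks their mean, grey lines the range, and an asterisk marks a leading region outside promoters. Eif3h has the highest mean, 18.8, and the median of the 36 means is 5.69.

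The factors eIF1 and eIF1A guard the choice of start codon. Of their 5 genes, 4 had a reproducible region, each in the promoter. Eif1ad, which encodes a protein with an eIF1A domain, was the highest of them. Its region (chr19:5366311-5367242) overlapped the start and had pileups of 31, 28 and 38 fragments in experiments 1, 2 and 3. The folds were 9.39, 12.5 and 9.93 (10.6 ± 1.66, SD, n = 3). Eif1ad stands head to head with Banf1, whose start is 450 bp away, and 1 peak at the Eif1ad start was named for Banf1. Eif1 and Eif1b, which encode eIF1 and a close relative, had regions in all 3 experiments, with mean folds of 5.90 and 7.0. Eif1ax, the X-linked gene of eIF1A, had a region in experiments 2 and 3 only, 146 bp before an annotated start. Eif1a, its relative on chromosome 18, had a peak named for it in experiment 1 (12 fragments), and the overlapping peaks of experiments 2 and 3 (15 and 28 fragments) were named for Tmed7, whose start is 169 bp away. The region was thus in all 3 experiments, but it was assigned to Tmed7.

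The 3 subunits of eIF2, which carry the initiator tRNA, differed. Eif2s2, encoding the beta subunit, had 2 regions in all 3 experiments on chromosome 2, 1 bp apart. The leading region (chr2:154892226-154892646) lay inside the gene, 272 bp from an annotated start, with pileups of 13, 10 and 19 fragments and folds of 4.97, 4.74 and 5.53 (5.08 ± 0.41, SD, n = 3). The second (chr2:154892648-154893086) overlapped another annotated start, at 4.68 ± 0.86. Eif2s1, encoding the alpha subunit whose phosphorylation shuts down initiation under stress, had 1 assigned peak, in experiment 2 (16 fragments, fold 5.02), inside the gene and 311 bp from the nearest annotated start. Peaks of experiments 1 and 3 (17 and 29 fragments) also lay near its start, but they were named for Atp6v1d, the gene that runs the other way from 434 bp off. They did not overlap the peak of experiment 2. Eif2s3x, the X-linked gene of the gamma subunit, had 1 peak in experiment 3, 34562 bp from a start, at a fold of 3.6. The genes of eIF2A and eIF2D, alternative carriers of initiator tRNA, had no reproducible region of their own. At Eif2a, overlapping peaks from all 3 experiments near the start were named for Serp1.

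Genes of eIF2B, the exchange factor that recharges eIF2 with GTP and is inhibited in the stress response, were covered at 4 of 5. Eif2b5, encoding the catalytic epsilon subunit, led. Its region (chr16:20498606-20499303) overlapped the start, with pileups of 26, 16 and 30 fragments and folds of 7.92, 6.86 and 9.31 (8.03 ± 1.23, SD, n = 3). Its summits lay 60, 37 and 62 bp downstream of the same annotated start. Promoter regions of Eif2b2, Eif2b3 and Eif2b4 had mean folds of 3.78, 4.45 and 4.58, below that of Eif2b5 by more than its SD. Eif2b1 had no assigned peak. Peaks of experiments 2 and 3 (18 and 27 fragments) lay within 1000 bp of its start and were named for Gtf2h3, whose start is 17 bp away.

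The eIF3 complex, the largest of the factors, binds the small subunit and prepares it for the mRNA. Of its 14 genes, 11 had a reproducible region and 9 a promoter region. Its highest site was not at a promoter. The leading region of Eif3h (chr15:51730691-51731350) was intergenic, 134262 bp downstream of the nearest annotated start and 55213 bp past the end of the gene, which spans chr15:51786563-51865461. Its pileups were 57, 50 and 64 fragments and its folds 17.0, 22 and 17.3 (18.8 ± 2.78, SD, n = 3), and it ranked on average above 99.5% of the peaks of a list. A second region 128452 bp downstream (chr15:51736655-51737029) had 34, 26 and 38 fragments and 9.73 ± 2.26. No reproducible region lay in the Eif3h promoter. The next protein-coding gene, Utp23, was 146091 bp from the leading region, so Eif3h was named as the nearest gene, and which gene the site acts on is not known from these lists.

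Eif3j2, a second copy of the gene of the eIF3j subunit, had 3 regions, all intergenic, upstream and in all 3 experiments. The leading one (chr18:43508189-43508516) lay 30353 bp before the start, with 29, 19 and 29 fragments and folds of 8.67, 8.61 and 9.01 (8.77 ± 0.21, SD, n = 3). The others lay 29389 and 15127 bp before it, at 6.70 ± 1.23 and 7.89 ± 1.66. For the leading region, another gene, Jakmip2, was nearer by body (17680 bp) than Eif3j2 itself (30353 bp). At the Eif3j2 start, weak overlapping peaks of experiments 1 and 3 were named for Gm27325. The copies differ in length: Eif3j1 spans chr2:122028580-122053632, and Eif3j2 only chr18:43475418-43477836. Whether reads were split between the copies was not tested, and these upstream sites lie outside both genes.

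Promoter regions of 3 further eIF3 genes were among the 12 highest-ranked of the family. Eif3e (chr15:43282362-43282907) had 28, 22 and 35 fragments and folds of 5.88, 9.91 and 6.70 (7.49 ± 2.13, SD, n = 3), with summits at −2, 37 and −17 bp from the start. Eif3g (chr9:20898317-20898804), which encodes an RNA-binding subunit, had 16, 22 and 32 fragments and folds of 6.04, 8.64 and 6.14 (6.94 ± 1.47, SD, n = 3). Eif3d (chr15:77970313-77971316), which encodes a subunit with cap-binding activity, had 25, 21 and 24 fragments and folds of 5.27, 8.46 and 5.56 (6.43 ± 1.76, SD, n = 3). At each of these 3 genes experiment 2 had the highest fold. The remaining covered genes Eif3a, Eif3b, Eif3c, Eif3f, Eif3j1 and Eif3m had leading promoter regions with mean folds from 4.19 to 7.21. Those of Eif3f and Eif3m were missing from experiment 1. Eif3i had 2 peaks, both in experiment 2, and the peaks of Eif3k (2) and Eif3l (3) did not overlap between experiments.

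The cap-binding complex eIF4F joins the helicase, the scaffold and the cap-binding protein, and its helicase genes Eif4a1 and Eif4a2 had regions in all 3 experiments. Eif4a1, encoding the main helicase, had a leading region (chr11:69671188-69672008) with 28, 21 and 41 fragments and folds of 8.14, 6.5 and 9.25 (7.96 ± 1.38, SD, n = 3). It lay over an annotated start inside the RefSeq gene. A second region in all 3 experiments (chr11:69672298-69672733) covered the whole printed window, at 4.79 ± 1.23. Eif4a2, encoding the second helicase, had a region over its start (chr16:23107157-23108363) with 24, 43 and 71 fragments. Its folds were 5.63, 13.0 and 13.4 (10.7 ± 4.38, SD, n = 3), with experiment 1 far below the other 2. Eif4a3, whose product sits in the exon junction complex, had a region in experiments 2 and 3 only, at 4.98 ± 0.60 (SD, n = 2). Eif4b and Eif4h, whose products stimulate the helicase, had promoter regions in all 3 experiments at 4.86 ± 0.36 and 4.84 ± 0.31, and Eif4b a further region 7667 bp upstream in experiments 2 and 3.

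Eif4e, the gene of the cap-binding protein, had 1 peak named for it, in experiment 2 (10 fragments, fold 4.33, over the start). A region inside the gene, present in all 3 experiments with 12, 12 and 18 fragments, was named for Mir1956, a microRNA gene. Eif4e2, which encodes a cap-binding relative that does not bind eIF4G, had a promoter region in all 3 experiments at 6.21 ± 2.06. Eif4e3 and Eif4enif1, the latter encoding the eIF4E transporter 4E-T, had no reproducible region. Eif4ebp1, encoding the mTOR target that holds eIF4E inactive, was led by an intergenic region 7367 bp upstream (chr8:27252657-27253027). Its pileups were 24, 14 and 39 fragments and its folds 8.88, 6.46 and 9.81 (8.38 ± 1.73, SD, n = 3). Its promoter region was weaker and missing from experiment 2, at 4.55 ± 2.14 (SD, n = 2), so the upstream site had the higher fold in each of the 2 experiments that held both. Eif4ebp2, the second binding protein, had a region that contained its start (chr10:61452668-61453251), with 19, 12 and 21 fragments and folds of 7.10, 5.0 and 5.83 (5.98 ± 1.06, SD, n = 3).

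All 3 eIF4G genes had reproducible regions, 9 between them, the most per gene of any group. Eif4g1, the main scaffold, had a leading promoter region (chr16:20672568-20672923) in experiments 2 and 3 only, with 16 and 17 fragments and folds of 7.32 and 4.97 (6.14 ± 1.67, SD, n = 2). A second promoter region was in experiments 1 and 2, at 3.79 ± 0.11, so no Eif4g1 region was in all 3, and none remained without experiment 2. Eif4g2, whose product lacks the eIF4E-binding part, was led by an intergenic region 39651 bp upstream (chr7:111121992-111123075). It had 18, 19 and 25 fragments and folds of 4.28, 7.34 and 4.84 (5.49 ± 1.63, SD, n = 3), and it lay inside the gene 1700012D14Rik. This mean mixes separate summits, at 111122158 in experiment 1 and at 111122813 and 111122770 in experiments 2 and 3. Near the latter summits experiment 1 had 14 fragments and a fold of 3.38. The Eif4g2 promoter region in all 3 experiments was at 4.65 ± 0.68, within 1 SD of the mean of the upstream region. Eif4g3, the gene of a second full-length scaffold, was led by an intronic region 27254 bp from the nearest annotated start, an internal one (chr4:138032006-138032272), with 13, 9 and 26 fragments and folds of 4.05, 4.31 and 7.45 (5.27 ± 1.89, SD, n = 3). Its promoter region in all 3 experiments was at 4.08 ± 0.97. Against it, the intronic site had the higher fold in experiments 1 and 3 and the lower one in experiment 2. Another promoter region, in experiments 1 and 3 only, had folds of 4.72 and 3.08, above the intronic site in experiment 1.

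All 5 genes of eIF5, eIF5A, eIF5B and eIF6 had a reproducible promoter region. Eif5b, encoding the GTPase that joins the ribosomal subunits, had the highest promoter region of the family (chr1:37997796-37998289). Its pileups were 40, 35 and 53 fragments, its folds 11.9, 9.52 and 16.2 (12.5 ± 3.37, SD, n = 3), and its summits lay 14, 13 and 20 bp downstream of the start. Upstream of it, a region in all 3 experiments was named for the head-to-head neighbour Txndc9, whose start is 802 bp away. Eif6, encoding the factor that keeps free large subunits apart from small ones, had a region over an annotated start (chr2:155826375-155826918) with 21, 21 and 45 fragments and folds of 7.10, 9.48 and 13.8 (10.1 ± 3.4, SD, n = 3). Its summits lay close together on chromosome 2, at 155826765, 155826756 and 155826763 in experiments 1, 2 and 3. Eif5, encoding the GTPase-activating protein of eIF2, and Eif5a, encoding the hypusine-bearing factor, had regions in all 3 experiments at 5.45 ± 0.87 and 5.06 ± 1.43. The Eif5 region was not reproducible without experiment 3, whose long peak joined those of the others. Eif5a2 was the weakest covered member, at 3.64 ± 0.86 (SD, n = 2). The experiment 3 peak of its region (10 fragments) was named for 1700112D23Rik. The experiment 3 peak named for Eif5a2 did not overlap that of experiment 2.

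Several members without a reproducible region of their own shared their start with a neighbour. A neighbour running the other way started within 1000 bp at 8 of the 50 family genes with a placed start (16.0%, against 8.45% of 20652 genes). Of these 8, Eif1ad, Eif2b4 and Eif5b had a reproducible promoter region named for them, and Eif1a, Eif2b1, Eif2s1, Eif3i and Eif3k had none. Among the 42 others, 31 had one. Over all genes the shares were 47.4% with such a neighbour and 38.6% without. Counted by position, whatever gene the annotation named, 40 of the 50 family genes had a reproducible region within 1000 bp of the start (80.0%, against 40.4% of genes), and 41 had one within 3000 bp (background 43.2%).

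Coverage of genes that act with the initiation factors or after them differed by list. The lists held 8 elongation factor genes, 6 termination and recycling genes and 30 genes of regulators and partners of initiation, and 7, 3 and 23 of them had a reproducible region (87.5%, 50% and 76.7%, background 43.6%). Bzw1, encoding a mimic of eIF5, had the highest leading region of these, over the start (chr1:58392536-58393309), with 46, 46 and 79 fragments and 17.2 ± 6.20 (SD, n = 3). That is above every promoter region of the initiation factors by mean fold. Gspt1, encoding the release factor eRF3a, had 34, 31 and 60 fragments at its promoter (14.1 ± 1.90, SD, n = 3), and Eif2ak3, the gene of the eIF2 kinase PERK, was led by a site 19541 bp upstream at 10.3 ± 2.37. Among 76 cytosolic ribosomal protein genes 60 were covered (78.9%), and among 45 proteasome subunit genes 35 were (77.8%). Initiation factor genes, at 69.2%, lay below both of these lists by this count. For a region in all 3 experiments their share was 55.8%, against 53.9% of ribosomal protein genes and 44.4% of proteasome genes, and neither difference was tested. Their leading regions had a median fold of 5.69, against 5.25 at ribosomal protein genes and 4.67 at proteasome genes. Promoter regions made up 86.1% of their leading regions, against 90.0% at ribosomal protein genes and 88.6% at proteasome genes. A reproducible promoter region was present at 65.4% of initiation factor genes, 72.4% of ribosomal protein genes and 73.3% of proteasome genes.

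**Figure D4:**
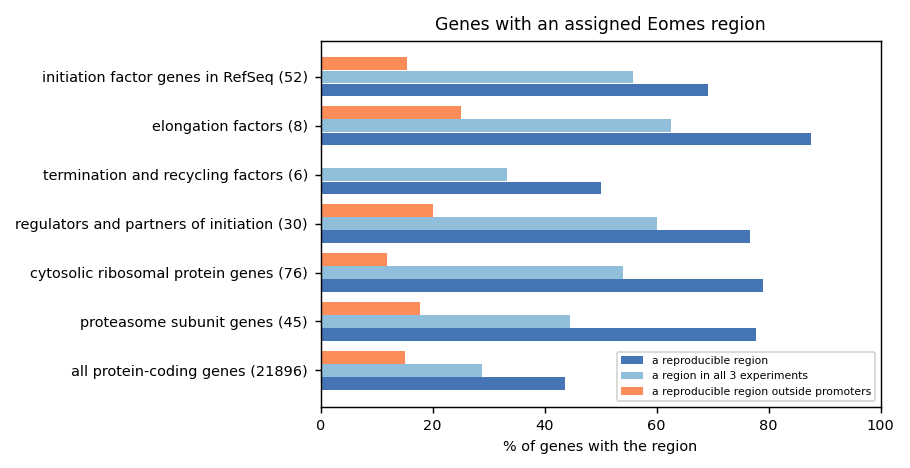
Share of genes (%, axis from 0) with a reproducible Eomes region, a region in all 3 experiments, and a reproducible region outside promoters, for 52 initiation factor genes, 5 other lists and all protein-coding genes, with the number of genes in brackets. Initiation factors stand at 69.2%, 55.8% and 15.4%, and all genes at 43.6%, 28.8% and 15.1%.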

How the data were processed

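Eomes IP and input libraries came from 3 experiments, and per the labels each deposited list sets 1 IP against the input of the same experiment, without pooling. The submitters' processing notes name mm10, Novoalign and ChIPseeker. The peak caller is named neither there nor in the labels. The deposited lists give, for each peak, a pileup (signal), a fold enrichment (ratio), −log10 p-values and −log10 q-values, and an annotation with the distance to the nearest start of any annotated transcript, including starts within genes. The smallest −log10 q in the lists was 1.31. Sub-peak rows were collapsed to 1 row per interval. A background recovered as (pileup + 1) / fold − 1 gave a Poisson tail matching the authors' −log10 p-value to within 0.000336, and its lowest value was 1.82, 1.32 and 2.33 fragments in the 3 lists, a stand-in for depth.

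Intervals sharing 1 bp were merged with pandas 2.3.3, checked against bedtools 2.31.1 (20126 reproducible regions by both) and tested on simulated lists, where 1005 of 1005 planted genes were recovered with 0 false calls. The highest-ranked peak of a region gave its annotation. Genes were matched by symbol or unique synonym to 21896 RefSeq protein-coding genes, and 74.7%, 77.4% and 76.7% of intervals matched. Members, gene lists and motifs were chosen with earlier results of these data known, so no p-value was computed, and counts are read against all genes. Values per experiment are given for the 12 highest-ranked leading regions, for leading regions outside promoters, and for chosen eIF2 and eIF4 genes whatever their values. Other members named with values were picked after these were seen. Alternatives were a 50% reciprocal overlap, −log10 q of at least 2, promoters within 1000 bp, sub-peaks kept, assignment by position, and each experiment left out. Regions whose gene was named by any of their peaks, further promoter windows, and alternatives for the other translation genes were added after seeing the data.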

Additional observations from a re-analysis of the deposited data

How the results depend on the processing

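The 36 covered members became 31 with a 50% reciprocal overlap (37.7% of all genes), 35 at −log10 q of at least 2 (41.1%) and 40 by position within 3000 bp (43.2%). It was 37 when any peak of a region could name the gene, an alternative with no share computed over all genes. Leaving out 1 experiment gave 29 to 36 (30.4% to 36.6% of all genes) and promoter counts of 25 to 33 (25.1% to 31.3%). Outside promoters it gave 6 members each time, near the 9.40% to 11.6% of all genes. Without experiment 2, the genes Eif1ax, Eif2b2, Eif3f, Eif3m, Eif4a3, Eif4g1 and Eif5a2 lost their regions. Without experiment 3, Eif1ax, Eif3a, Eif3f, Eif3m, Eif4a3, Eif5 and Eif5a2 did, Eif3a and Eif5 because their region in all 3 lists is a chain of peaks that only experiment 3 links. Without experiment 1 none did, and 27 members kept a region in every case, a count with no share computed over all genes. Members with a region in all 3 experiments fell from 29 to 19 with the reciprocal overlap (background 20.6%), and numbered 27 at the stricter q (background 26.7%). The promoter share of 62.3% was 65.4% with sub-peaks kept and 59.2% with promoters within 1000 bp, where the class itself is narrower, and 61.0% to 63.4% without 1 experiment. The pileup difference was 1.00 to 2.50 fragments without 1 experiment. Other translation genes with a reproducible region numbered 27 to 30 of 44 without 1 experiment, against 30.4% to 36.6% of all genes. Mean folds of the named genes kept within 1 SD in all 67 alternatives run. For left-out experiments this was fixed in advance, because dropping 1 of 2 or 3 values cannot move a mean by 1 SD. The stricter q left these means unchanged, so neither alternative tests the folds. By position, no count outside promoters exists. Leaving out 1 experiment leaves no region in all 3. No paired analysis was possible because the lists give no values for the input libraries alone, and pairing enters only through the peak caller. Depth is known only through the lowest listed pileups, so a missing peak does not show absence of binding.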
